A study of Rattus norvegicus with 2 samples.

Results

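The enzymes that carry glucose carbon through glycolysis, the pentose phosphate pathway, the entry of pyruvate into mitochondria and the citrate cycle were examined in a rat myeloma line, on arrays made for human genes. Members were chosen by name, as every probe set whose gene symbol in the array's annotation holds a listed gene, with the Affymetrix control probe sets left out. Of 39 listed genes, 38 had a probe set, and together they had 86 of the 54613 probe sets compared. FH was not analysed here. Glycolysis, with the glucose transporter SLC2A1, held 18 genes and 39 probe sets. The pentose phosphate pathway held 4 genes and 8 probe sets, pyruvate entry 5 genes and 13 probe sets, and the citrate cycle 11 genes and 26 probe sets. None of the 86 probe sets was annotated to several genes.

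Glycolysis breaks glucose down to pyruvate in the cytosol and gives a small yield of ATP, and lactate dehydrogenase turns pyruvate to lactate to restore NAD+. The pentose phosphate pathway branches off from glucose 6-phosphate and supplies NADPH and ribose, and its non-oxidative arm, in which transketolase works, leads back to glycolysis. Pyruvate enters the citrate cycle through the pyruvate dehydrogenase complex, which pyruvate dehydrogenase kinases switch off. Plasma cells secrete large amounts of protein and draw on all of these pathways. Secretion by the myeloma line of this series was not measured.

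The series held 1 array of control cells and 1 array of sorted cells, and total RNA was measured on each. YB2/0 is a rat myeloma cell line. The control array was of cells with no treatment, which the paper calls untransfected. The sorted cells came from YB2/0 cells that had received, through a retrovirus, a cDNA library of human umbilical vein endothelial cells (HUVECs), and that were sorted for binding of patient IgG. The paper speaks of cloned cells, and neither it nor the labels name the clone, the serum or the number of sorting rounds behind this array. Transduction, repeated sorting, culture and cloning therefore cannot be told apart, and neither can a difference between array runs.

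The authors gave each probe set a MAS5 signal, an intensity on a linear scale, and called it Present, Marginal or Absent. Rat transcripts give a signal only where they bind probes designed for human genes, so an Absent call says nothing of the level of the rat transcript. Over all 54613 probe sets, 4875 were Present in control cells and 4502 in sorted cells. The inserted PROCR was Absent in control cells at 186 and Present in sorted cells at 528933, and SCARB1 probe set 1552256_a_at was Absent at 1176 and Present at 120463. Both were thus gained on the same sorted array, whereas the paper found these inserts in different clones, obtained with different serum samples. Whether RNA of several clones was pooled for this array is not stated and was not tested. Of 12 plasma cell and B cell marker genes with a probe set, 3 were Present in at least 1 sample, namely SDC1, PRDM1 and CD27. Their Present probe sets numbered 4 in control cells and 1 in sorted cells. SDC1 201287_s_at kept its call (3390 in control cells, 4206 in sorted cells), while SDC1 201286_at was Absent in both (378 and 167). CD27 was Present in control cells at 1353 and Absent in sorted cells at 253. Both PRDM1 probe sets called Present in control cells lost that call. The signal of 217192_s_at fell from 1850 to 1113, with a Marginal call on the sorted array. That of 228964_at rose from 483 to 528, with an Absent call there. All 15 probe sets of 8 endothelial marker genes were Absent in both samples. With 1 array per condition the replicate error could not be estimated, and no test was made.

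A probe set was taken as higher in sorted cells if it was Present there and had at least 2-fold the signal of control cells, and as lower if it was Present in control cells with a signal at least 2-fold lower in sorted cells. By this rule 2 member probe sets of 2 genes were higher, those of PFKM and DLAT, and 4 probe sets of 3 genes were lower, those of TKT, LDHA and PDK1. Among all probe sets the rule took 1.61% as higher and 1.77% as lower. Most probe sets cannot pass it because they are not detected, so the share among probe sets Present in at least 1 sample is the closer background. There it was 12.9% higher and 14.1% lower, against 11.8% (2 of 17) and 23.5% (4 of 17) among the members. The share higher was near the background, and the share lower rests on 4 probe sets, of which both TKT probe sets read the same gene.

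Rat sequences before the start of Ldha, Pdk1 and Dlat are shown because their probe sets passed the rule in opposite directions. They were taken from the promoter table of RefSeq, on build GRCr8, and hold only the bases that lie before the outermost annotated start of the gene, 5′ to 3′ on its strand. These were 250 bases for Ldha at chr1:106507842-106508091 (+), 200 for Pdk1 at chr3:77113264-77113463 (+) and 121 for Dlat at chr8:59900948-59901068 (-). The stretches that the table gives for Tkt and Pfkm lie inside the annotated genes and are not shown. Capitals mark ACGTG or GCGTG on either strand, the core letters of the element bound by hypoxia-inducible factor, of which LDHA and PDK1 are textbook targets. Where ACGTG lies on both strands of the same place it forms CACGTG, the E-box letters.
Ldha: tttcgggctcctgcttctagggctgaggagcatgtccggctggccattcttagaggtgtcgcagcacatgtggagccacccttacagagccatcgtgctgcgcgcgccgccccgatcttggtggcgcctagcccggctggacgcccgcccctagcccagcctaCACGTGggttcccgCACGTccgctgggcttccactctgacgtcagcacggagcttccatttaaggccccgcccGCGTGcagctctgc
Pdk1: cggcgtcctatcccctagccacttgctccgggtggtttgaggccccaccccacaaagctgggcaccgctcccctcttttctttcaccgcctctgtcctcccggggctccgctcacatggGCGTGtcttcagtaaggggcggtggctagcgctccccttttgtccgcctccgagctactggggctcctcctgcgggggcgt
Dlat: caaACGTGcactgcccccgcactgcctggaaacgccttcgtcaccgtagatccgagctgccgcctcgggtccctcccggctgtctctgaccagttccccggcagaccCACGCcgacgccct

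The upstream sequence of Ldha held 4 matches, counting each strand, of which a pair overlaps in CACGTG 87 to 82 bases before the start. That of Pdk1 held 1 match and that of Dlat held 2. At least 1 match was found in 32.8% of 19334 rat sequences of 250 bases that lie wholly before the outermost start of their gene, in 28.4% of their last 200 bases and in 20.1% of their last 121. Of member genes 22 had such a sequence of 250 bases, and 12 of them held a match (54.5%). A match is a string of letters and was not tested as a binding site.

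**Figure D1:**
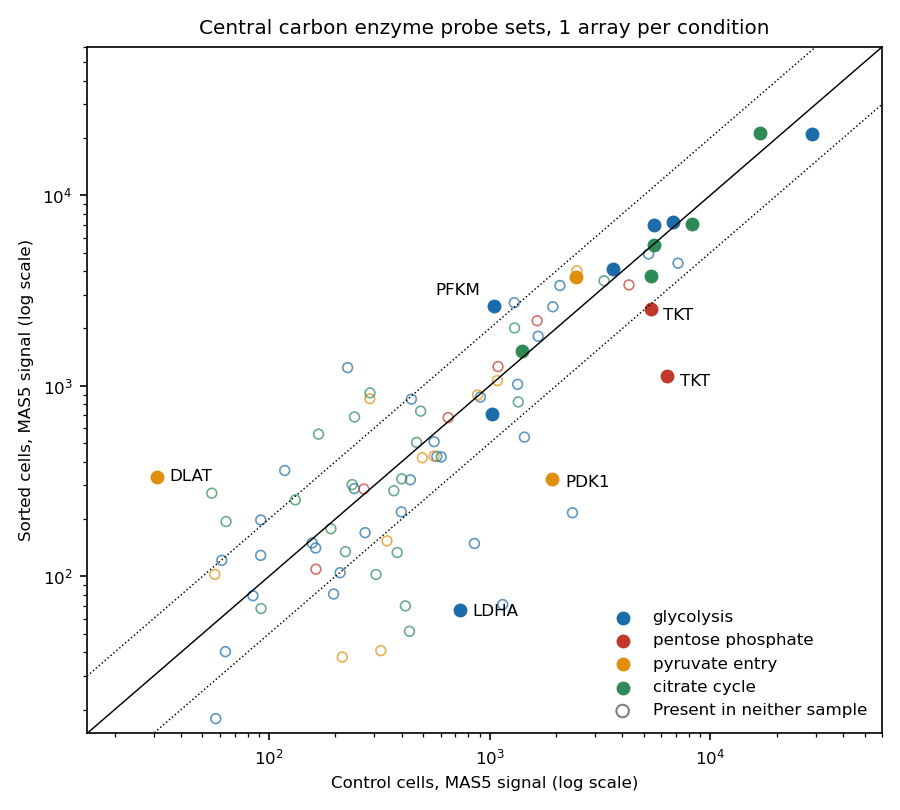
MAS5 signal of the 86 member probe sets in control cells (horizontal axis) and sorted cells (vertical axis), both on log scales, from 1 array each. Filled points were Present in at least 1 sample and open points in neither, equal signals lie on the solid line and 2-fold differences on the dotted ones. The labelled points are the 6 probe sets past the 2-fold rule, and the pair for TKT is the only one of them Present in both samples.

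Detection was limited in the same way on both arrays. Of the 86 member probe sets, 13 were Present in control cells and 13 in sorted cells, which is 15.1% on each array, against 8.93% and 8.24% of all probe sets. In all, 17 probe sets of 15 genes (39.5% of the 38) were Present in at least 1 sample. Of these, 9 were Present in both, 4 in control cells only and 4 in sorted cells only. Probe sets whose names end in _s_at, which can bind transcripts of several genes or variants, gave 9 of the 17, from 29 on the array (31.0%), while the 39 that end in _at gave 5 (12.8%). Over the whole array 17.1% and 10.6% of these kinds were Present in at least 1 sample. At a detection p-value under 0.01, 4 remained in each sample. These were both TKT probe sets, PDHA1 and MDH1 in control cells, and PGK1, PDHA1, IDH3G and MDH1 in sorted cells.

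Where Present calls were made on both arrays, the 7 member probe sets other than those of TKT differed by less than 2-fold. This choice leaves out LDHA, PDK1, PFKM and DLAT, which passed the 2-fold rule, and TKT is set apart for its values. The narrow range is thus partly fixed by the choice. The log2 ratios of sorted over control signal of these 7 ran from -0.51 to 0.61. The 2556 probe sets of the whole array that were Present in both had a median of 0.11, and their central 95% ran from -1.17 to 1.32. Among those 2556, 6.34% were higher and 4.15% were lower by the 2-fold rule. The TKT probe set 208700_s_at stood outside the central 95%, and 208699_x_at stood inside it near its lower end. The quartiles of the 2556 were -0.29 and 0.49, and 4 of the 9 member probe sets lay between them.

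**Figure D2:**
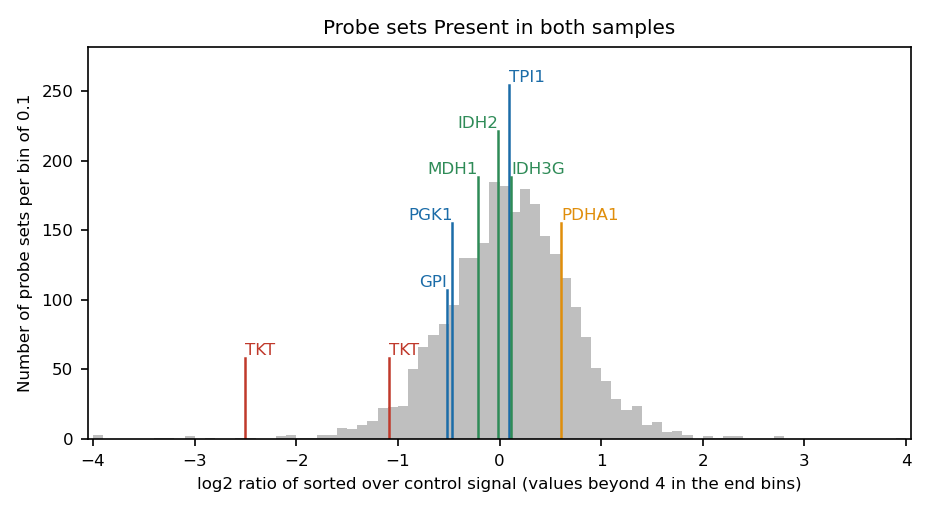
Histogram of the log2 ratio of sorted over control signal for the 2556 probe sets Present in both samples, with lines at the 9 member probe sets among them, coloured by pathway (blue glycolysis, red pentose phosphate, orange pyruvate entry, green citrate cycle; line heights only separate the names). The TKT lines stand at -2.50 and -1.09, and the other 7 lie between -0.51 and 0.61.

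Transketolase, TKT, moves carbon units between sugar phosphates and links the pentose phosphate pathway to glycolysis. It gave the only member probe sets past the 2-fold rule that were Present on both arrays. Its 208700_s_at read 6395 in control cells and 1128 in sorted cells, Present in both, and was 5.67-fold lower in sorted cells (log2 ratio -2.50). Of the 2556 probe sets Present in both, 0.352% had a ratio as low or lower. Probe set 208699_x_at had 5376 in control cells and 2523 in sorted cells, also Present in both, 2.13-fold lower (log2 ratio -1.09), and 3.33% of those probe sets were as low or lower. The detection p-value of each rose from 0.000244 in control cells to 0.0376 in sorted cells. By their names, _s_at and _x_at, neither of this pair is gene-specific. The remaining probe set, 228205_at, is the only gene-specific one, and was Absent at 163 in control cells and at 109 in sorted cells (log2 ratio -0.58). All 3 thus had a smaller signal in sorted cells, with different sizes, and the reason for the gap between the Present pair was not tested.

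The other pentose phosphate enzymes were Absent in both samples. PGD, the 6-phosphogluconate dehydrogenase that yields NADPH, is read by 3 probe sets, and the brightest, 201118_at, had 4282 in control cells and 3386 in sorted cells. TALDO1, the transaldolase that works beside TKT, had 1643 in control cells and 2196 in sorted cells (log2 ratio 0.42). RPIA, the ribose 5-phosphate isomerase, had 269 in control cells and 287 in sorted cells. These Absent signals showed no 2-fold difference for PGD, TALDO1 or RPIA, but they are not measured levels.

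In glycolysis, 7 of 39 probe sets were Present in at least 1 sample, from GPI, PFKM, TPI1, PGK1, ENO1 and LDHA. Of these 7, PFKM was higher (14.3%, against 12.9% of all probe sets Present in at least 1 sample). LDHA was lower (14.3%, against 14.1%), and 5 were neither. The median log2 ratio of the 7 was 0.097. Over all probe sets Present in at least 1 sample the median was 0.048. The members fell on either side of it, and the median of the 3 glycolytic probe sets Present in both samples was -0.46.

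The upper steps of glycolysis were poorly detected. HK1 and HK2, the hexokinases that phosphorylate glucose, were Absent in both samples in all 4 of their probe sets. GPI, the isomerase that makes fructose 6-phosphate, had 1022 in control cells and 715 in sorted cells, Present in both (log2 ratio -0.51). PFKM, a subunit of phosphofructokinase, the main point of control of the pathway, was Absent at 1044 in control cells and Present at 2639 in sorted cells by 210976_s_at. The gain was at least 2.53-fold, where a fold against an Absent signal is taken from the larger of that signal and the lowest Present signal of its array (148 in control cells, 159 in sorted cells). Such a limit rests on the floor chosen, and a higher floor gives a smaller fold. The other phosphofructokinase subunits, PFKL and PFKP, were Absent in both samples in all of their probe sets, and no log2 ratio among them was above 0. ALDOA, the aldolase, was Absent throughout, with log2 ratios of -0.44, 0.43 and 1.61 at its 3 probe sets.

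The lower steps down to pyruvate were detected in part, and their Present probe sets differed by less than 2-fold. TPI1, which interconverts the triose phosphates, had 6772 in control cells and 7243 in sorted cells by 200822_x_at, Present in both (log2 ratio 0.10). The other TPI1 probe sets were Absent in both samples, with log2 ratios of 0.49 and -0.39. PGK1, which makes ATP from 1,3-bisphosphoglycerate, is read by 6 probe sets. Of these, 217356_s_at was Present in both with 28836 in control cells and 20920 in sorted cells (log2 ratio -0.46). A further PGK1 probe set, 200737_at, was Absent at 3613 in control cells and Present at 4086 in sorted cells (log2 ratio 0.18). The Present probe sets of PGK1 thus had log2 ratios of opposite sign, each under 2-fold. Those Present in neither sample had log2 ratios of -0.14, -0.66, -1.42 and -1.68. Of the 6 probe sets, 5 therefore had smaller signals in sorted cells. ENO1, the enolase that makes phosphoenolpyruvate, was Present in control cells at 5575 and Marginal in sorted cells at 7004 by 217294_s_at (log2 ratio 0.33). The other ENO1 probe sets were Absent in both samples, with log2 ratios of -4.01, 0.13 and 0.69. PGAM1, the mutase before enolase, and PKM, the pyruvate kinase that makes pyruvate, were Absent in both samples.

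LDHA, the lactate dehydrogenase subunit that favours lactate formation, is read by a single probe set, 200650_s_at. It was Present in control cells at 732 and Absent in sorted cells at 66.6. The sorted signal was under the lowest Present signal of its array, so by the same rule LDHA was at least 4.60-fold lower (limit -2.20 on the log2 scale), while the signals as deposited gave -3.46. With the floor at the median Absent signal the log2 ratio was -1.63, nearer to equal signals than that limit. LDHB, the subunit prominent in heart, was Absent in both samples at both of its probe sets, and these went opposite ways. Its 201030_x_at had 2374 in control cells and 216 in sorted cells, and its 213564_x_at had 227 in control cells and 1247 in sorted cells. SLC2A1, the transporter GLUT1, was Absent throughout, with log2 ratios of 0.95 and 0.99.

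**Figure D3:**
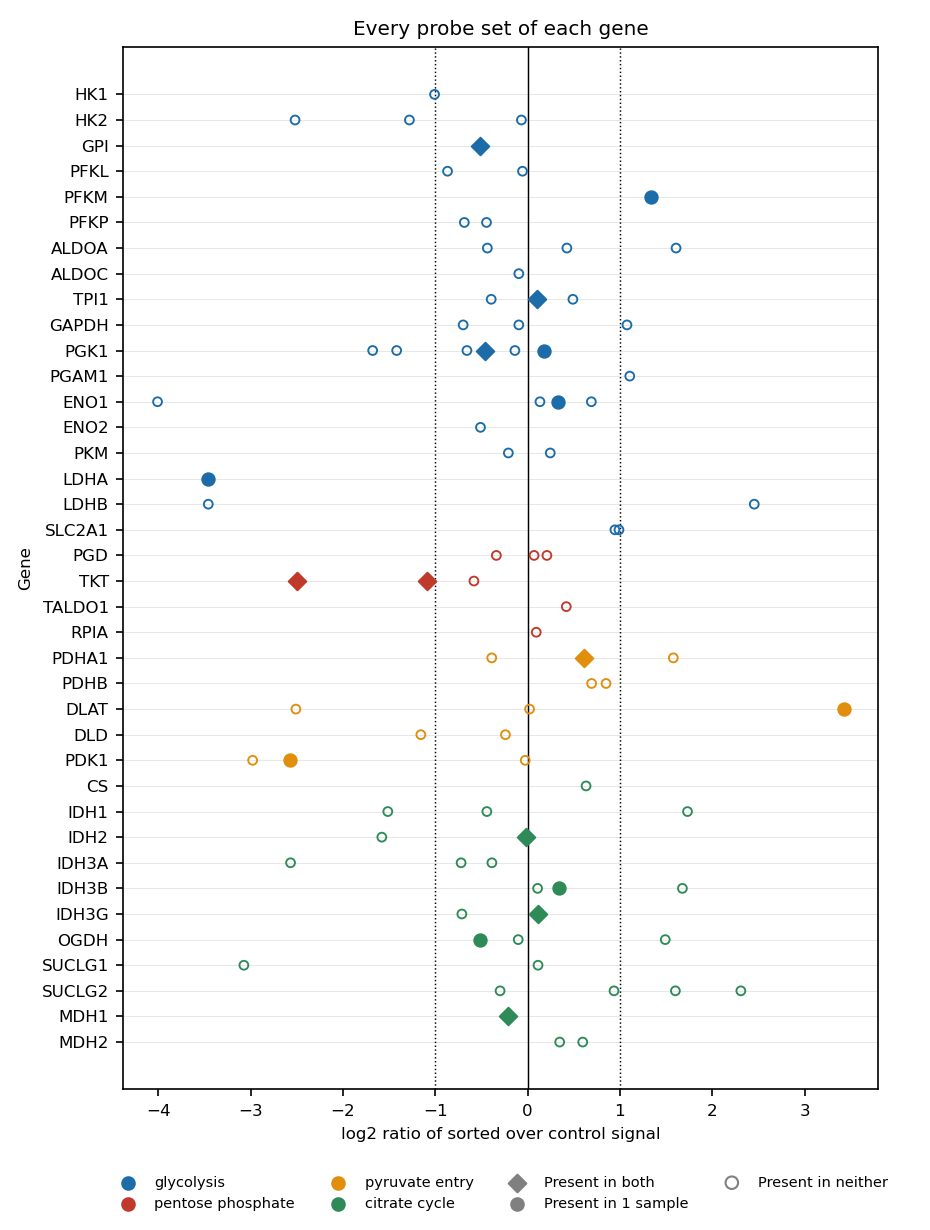
log2 ratio of sorted over control signal (horizontal axis) for each of the 86 probe sets, by gene and coloured by pathway. Diamonds were Present in both samples, filled circles in 1 sample and open circles in neither, and dotted lines mark 2-fold. The open circles run from -4.01 to 2.46 and the diamonds from -2.50 to 0.61, and DLAT, LDHB and ENO1 have probe sets that point in opposite directions.

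GAPDH, which oxidises glyceraldehyde 3-phosphate, showed how far detection depended on the probes. Its 3 probe sets were Absent in both samples, with log2 ratios of -0.70, -0.10 and 1.08. The array also carries 3 control probe sets for human GAPDH, which the choice of members left out, named for the 5′ end, the middle and the 3′ end of the transcript. All 3 were Present in both samples. The 5′ probe set had 27563 in control cells and 23959 in sorted cells, the middle 72305 and 37966, and the 3′ probe set 7313 and 4557. Their log2 ratios were -0.20, -0.93 and -0.68, each under 2-fold and each toward control cells. A GAPDH signal was therefore called in both samples although no member probe set was Present, and the part of probe position or of rat sequence in this was not tested.

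**Figure D4:**
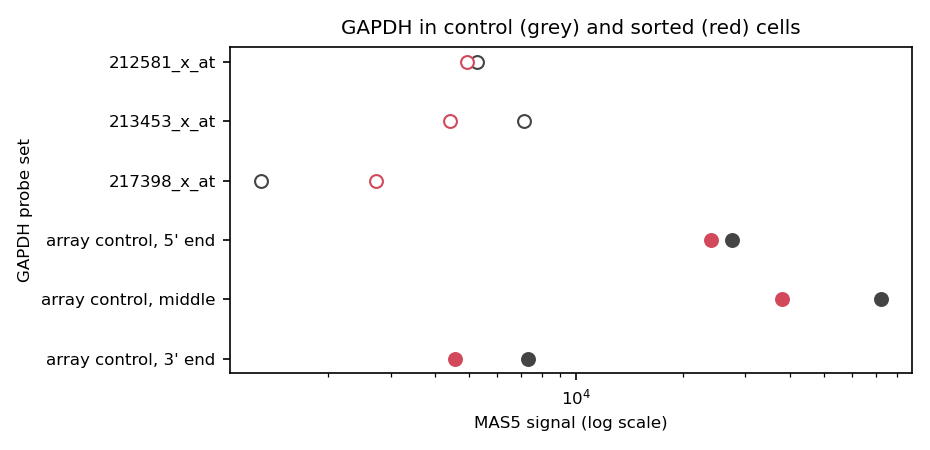
MAS5 signal on a log scale for the 3 probe sets of GAPDH and the 3 GAPDH control probe sets of the array, in control cells (grey) and sorted cells (red), 1 array each. Filled points were Present and open points Absent: all 3 control probe sets were Present in both samples and no other GAPDH probe set was Present in either.

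At the entry of pyruvate into the citrate cycle, 3 of 13 probe sets were Present in at least 1 sample, of which 1 was higher, 1 was lower and 1 was neither. Among all probe sets Present in at least 1 sample, 12.9% were higher and 14.1% lower, and 3 probe sets are too few to compare with these shares. The median log2 ratio of the 3 was 0.61, which is that of PDHA1. PDHA1 is the catalytic E1 alpha subunit of pyruvate dehydrogenase. Its 200980_s_at had 2455 in control cells and 3736 in sorted cells, Present in both (1.52-fold higher, log2 ratio 0.61). The other PDHA1 probe sets were Absent in both samples, with log2 ratios of 1.58 and -0.39. PDHB, the E1 beta subunit, was Absent in both samples, with log2 ratios of 0.69 and 0.85. DLD, the E3 subunit shared with other dehydrogenase complexes, was Absent in both samples, with -1.16 and -0.24.

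PDK1, the kinase that phosphorylates and switches off E1, was Present in control cells at 1927 and Absent in sorted cells at 324 by 206686_at, at least 5.95-fold lower (log2 ratio -2.57). Its probe set 226452_at was Marginal at 321 in control cells and Absent at 40.8 in sorted cells (log2 ratio -2.98), and would pass the rule if Marginal calls were counted. The remaining 239798_at was Absent in both samples with nearly equal signals, 1085 and 1065. PDK1 therefore had a Present probe set and a Marginal one with smaller signals in sorted cells, and an Absent one without.

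DLAT, the E2 core subunit that forms acetyl-CoA, was the called difference that depended most on the dim array. Its 213149_at was Absent at 31.0 in control cells and Present at 333 in sorted cells, with a detection p-value of 0.0461 there. The log2 ratio of the signals was 3.42, and against the lowest Present signal of the control array it was, by the same rule, at least 2.24-fold higher (limit 1.17 on the log2 scale). That limit does not hold with a higher floor, since the log2 ratio was 0.47, under 2-fold, when dim signals were raised to the median Absent signal. The other DLAT probe sets were Absent in both samples, and their signals went from 882 to 895 at 211150_s_at and from 215 to 37.7 at 212568_s_at.

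The citrate cycle was the group in which no probe set passed the 2-fold rule in either direction. Of 26 probe sets, 5 were Present in at least 1 sample, with a median log2 ratio of -0.017. Among all probe sets Present in at least 1 sample, 12.9% were higher and 14.1% lower. With only 5 probe sets, the lack of a called difference therefore does not set this group apart. IDH2, the mitochondrial NADP-dependent isocitrate dehydrogenase, had 5556 in control cells and 5490 in sorted cells by 210046_s_at, Present in both (log2 ratio -0.02). IDH3G, a regulatory subunit of the NAD-dependent enzyme, had 1407 in control cells and 1521 in sorted cells by 202471_s_at, Present in both (log2 ratio 0.11). IDH3B, another subunit of it, was Absent at 16777 in control cells and Present at 21296 in sorted cells by 210014_x_at (log2 ratio 0.34). The signals of these named probe sets differed by less than 2-fold between the arrays, although the call for IDH3B changed. Other probe sets of these genes were Absent in both samples. Their log2 ratios were -1.58 for IDH2, -0.71 for IDH3G, and 1.68 and 0.11 for IDH3B.

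OGDH, the E1 subunit of the 2-oxoglutarate dehydrogenase complex, was Present in control cells at 5370 and Absent in sorted cells at 3749 by 1554151_at (log2 ratio -0.52). The other OGDH probe sets were Absent in both samples, with log2 ratios of 1.49 and -0.10. MDH1, the cytosolic malate dehydrogenase of the malate-aspartate shuttle, had 8222 in control cells and 7085 in sorted cells, Present in both (log2 ratio -0.21). Its detection p-value was under 0.01 in both samples, as was that of PDHA1. CS, the citrate synthase that opens the cycle, was Absent at 1297 in control cells and 2012 in sorted cells (log2 ratio 0.63). IDH1, IDH3A, SUCLG1, SUCLG2 and MDH2 were also Absent in both samples in all of their probe sets.

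**Figure D5:**
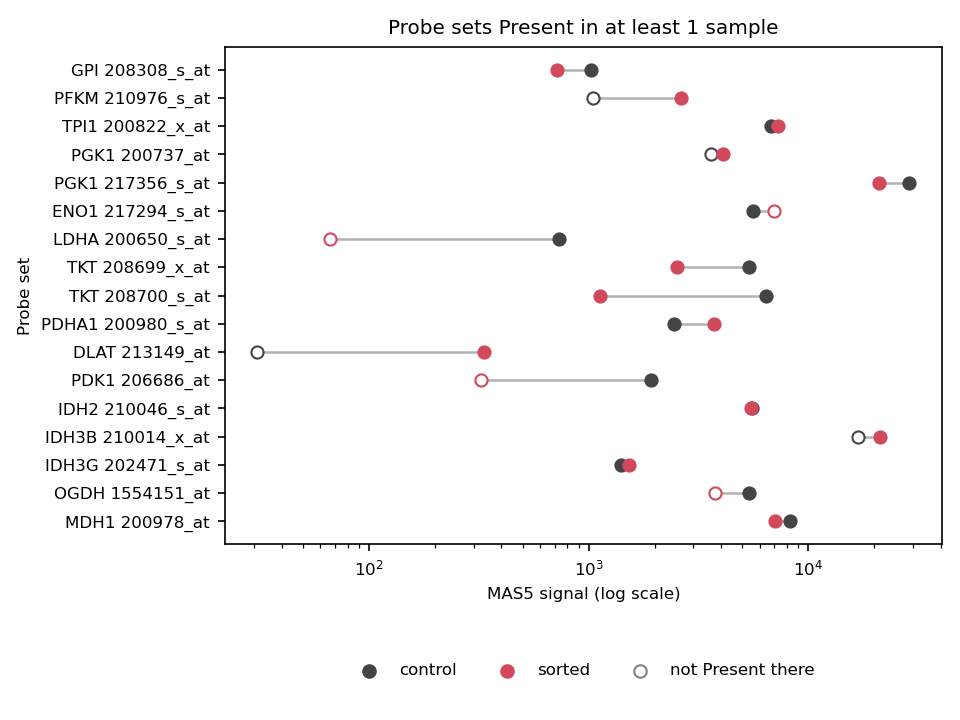
MAS5 signal on a log scale of the 17 member probe sets Present in at least 1 sample, in control cells (grey) and sorted cells (red), 1 array each, with open points where the probe set was not Present. The longest lines belong to DLAT and LDHA, where the dim end lies under the lowest Present signal of its array, and 11 of the 17 differ by less than 2-fold.

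Probe sets of the same gene often disagreed. Of the 38 genes, 27 had more than 1 probe set, and in 15 of these the log2 ratios had both signs. The spread between the lowest and the highest log2 ratio of a gene was over 1 in 17 of the 27 and over 2 in 11, with a median of 1.86. The widest were DLAT (5.93), LDHB (5.92) and ENO1 (4.70). Most of this spread came with Absent signals, and of the 69 member probe sets Present in neither sample, 10 were at least 2-fold higher and 14 at least 2-fold lower with no call to support a level. TKT and PGK1 were the genes with 2 probe sets Present in at least 1 sample. In TKT these lay 1.41 apart on the log2 scale and in PGK1 0.64 apart.

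The 23 genes with no Present probe set in either sample were HK1, HK2, PFKL, PFKP, ALDOA, ALDOC, GAPDH, PGAM1, ENO2, PKM, LDHB and SLC2A1 in glycolysis, PGD, TALDO1 and RPIA in the pentose phosphate pathway, PDHB and DLD in pyruvate entry, and CS, IDH1, IDH3A, SUCLG1, SUCLG2 and MDH2 in the citrate cycle. Their 47 probe sets had signals of 55.1 to 7142 in control cells and 51.5 to 4919 in sorted cells. They give no comparison between the samples. The nearest to detection was LDHB, whose 201030_x_at had a detection p-value of 0.0676 in control cells, followed by TALDO1 at 0.0806.

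Other enzymes of the same pathways were listed with the members and were not picked for how they moved, although earlier results of these data were known by then. Of those listed, 47 genes had a probe set, 103 in all, and 13 probe sets of 12 genes were Present in at least 1 sample. By the 2-fold rule 2 were higher and 0 were lower, and the median log2 ratio of the 13 was 0.21. These counts are 15.4% and 0%, against 12.9% and 14.1% of all probe sets Present in at least 1 sample. The share higher was near the background, and 13 probe sets are too few to read the share lower. Those higher were PGK2, the testis form of phosphoglycerate kinase, and PFKFB1, a form of the enzyme that sets fructose 2,6-bisphosphate. PGK2 had 595 in control cells and 1581 in sorted cells, Present in both (log2 ratio 1.41), and since PGK2 is a copy of PGK1, transcripts of either may bind its probes. PFKFB1 was Absent at 856 in control cells and Present at 1961 in sorted cells by 237777_at, at least 2.29-fold higher. Its other probe sets were Absent in both samples and had smaller signals in sorted cells. These were 207537_at, with 2058 in control cells and 1861 in sorted cells, and 240883_at, with 124 and 56.0. SDHA, the flavoprotein of succinate dehydrogenase, was Present in control cells at 2579 and Absent in sorted cells at 2519, and ACLY, which cleaves citrate for lipid synthesis, was Absent at 1113 and Present at 1283. The signals of SDHA 201093_x_at and ACLY 201128_s_at were thus close on both arrays although their calls differed. Other probe sets of these genes were Absent in both samples, with log2 ratios of -1.30 for SDHA and of -1.24 and 0.15 for ACLY. Apart from PFKFB1, the other enzyme probe sets Present in only 1 sample had log2 ratios from -0.51 (ME2) to 0.73 (SUCLA2).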

How the data were processed

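Total RNA of 1 sample of control and 1 sample of sorted YB2/0 cells was hybridised to 1 Affymetrix array each. The deposited signal is a MAS5 intensity that the authors computed and scaled per array, with Affymetrix Expression Console named in the notes of the submitters (version not given in the sources used here). Their deposited detection p-value was used through their calls, and once with a limit of 0.01. For the members, the series' value table differed from the sample files by at most 0.00048%.

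Probe sets were named by the array's annotation (GEO's platform table), and 62 control probe sets were left out. Log2 ratios of the signals as deposited were taken with Python 3.11.15, numpy 2.4.6 and pandas 2.3.3 and plotted with matplotlib 3.10.9. The number of arrays limits the precision. The members, the lists and the rules were chosen with earlier results of these data known. Every member with a Present probe set is named with its values, and of the other enzymes those past the 2-fold rule, at most 10. SDHA and ACLY were named after their values were seen. Rat upstream sequences came from RefSeq (GRCr8), matched by symbol.

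The alternatives were quantile normalization, centring, the value table, a floor on dim signals, a 4-fold rule, other detection rules, gene-specific probe sets, and the brightest probe set of a gene. Without replicates, a change in a log2 ratio counted as a move above 0.33, which is the SD over 18 hybridisation spikes and a limit set after the data were seen.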

Additional observations from a re-analysis of the deposited data

How the results depend on the processing

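No paired analysis was possible because each condition has a single array, and no array could be left out. The counts of 2 higher and 4 lower member probe sets were 1 and 4 with a floor on dim signals, 1 and 3 with a 4-fold rule, 0 and 2 with Present calls in both samples required, 2 and 2 with an Absent call required in the other sample, 12 and 18 with no detection call, 1 and 1 with gene-specific probe sets only, and 1 and 2 with the brightest probe set of each gene. The last takes out DLAT, PDK1 and the dimmer TKT probe set by construction. Quantile normalization and centring, which shifts every log2 ratio by 0.11, left both counts as they were. Member probe sets with a detection p-value under 0.01 numbered 4 in control cells and 4 in sorted cells, against 13 Present in each. The median log2 ratio of glycolysis turned from 0.097 to -0.46 with Present calls in both samples required. It also fell below 0, by changes under the limit, with quantile normalization (-0.020), no detection call (-0.14) and the brightest probe sets (-0.18). With gene-specific probe sets (0.18) and the floor (0.097) it stayed above 0. The median of pyruvate entry turned from 0.61 to -0.026 with no detection call. The pentose phosphate median of -1.80 is that of the TKT probe sets, and was -0.13 with no detection call and -1.09 with the brightest probe set of each gene. It had no value with gene-specific probe sets, since none was Present. With gene-specific probe sets the citrate cycle gave -0.37 in place of -0.017. The cause was not tested. Of the other enzymes, 0 passed a 4-fold rule. Of the 17 probe sets Present in at least 1 sample, 2 moved with the floor, LDHA to -1.63 and DLAT to 0.47, and 0 moved with quantile normalization, centring or the value table. Without replicates no error could be estimated for any of these values.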
